A study of Mus musculus with 8 samples.

Results

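The nonclassical major histocompatibility complex (MHC) class I genes described here are H2-T3, H2-T10, H2-T22, H2-T23, H2-Q1, H2-Q2, H2-Q4, H2-Q7, Cd1d1 and Mr1. They were taken by gene symbol from the deposited count tables, which gave 10 genes of 34745 rows. The tables came from intestinal crypts, the epithelial glands of the gut wall, of wild-type (WT) C57BL/6 mice on day 5. The DSS+CA group held 4 libraries and the DSS group held 4 libraries. DSS, dextran sulfate sodium, is a drinking-water agent used to injure the gut lining of mice, and all 8 libraries came from animals given it. CA is cholic acid, a primary bile acid, by the title of the series, so the comparison asks what cholic acid adds to DSS, and no library without DSS was analysed here. Gut segment, age, sex, dose and route are not in the labels, and nothing there says that the 4 replicates of a group were separate animals. So the p-values reflect only how far these samples differ from each other, and part or all of that spread may be technical.

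Class I molecules are membrane proteins of a heavy chain paired with beta-2 microglobulin. The classical ones, H2-K and H2-D, show peptides from inside the cell to CD8 T cells on nearly all cell types. The nonclassical ones vary little between individuals, are often limited to certain tissues, and present special ligands or none: the thymus leukaemia antigen encoded by H2-T3 is displayed by mouse intestinal epithelium and binds the CD8αα form of CD8 carried by intraepithelial lymphocytes. Interferons raise the transcription of many class I genes through IRF1 and NLRC5.

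The heavy-chain genes of the H2-T and H2-Q clusters lie on chromosome 17. In the GRCm38 coordinates of the tables, H2-T3 occupies chr17:36185572-36190287, H2-T10 chr17:36115876-36121465, H2-T22 chr17:36037128-36042747 and H2-T23 chr17:36029773-36032855, all on the minus strand. H2-Q1 occupies chr17:35320405-35325099, H2-Q2 chr17:35342242-35346762, H2-Q4 chr17:35379617-35385290 and H2-Q7 chr17:35439155-35443773, all on the plus strand. Cd1d1 lies at chr3:86995834-86999441 and Mr1 at chr1:155127277-155146814, both on the minus strand. Strands and gene types are from the GENCODE M21 annotation, which gives H2-T10 as a polymorphic pseudogene and the other 9 as protein coding.

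Promoter windows were in the RefSeq table (GRCm38.p6) for 7 of the 10 genes, and not for H2-T10, H2-Q1 and Cd1d1. The 250 bases upstream of the RefSeq start are printed for 6 of them because they show how the regulatory letters of neighbouring genes differ. For H2-T3, H2-T22, H2-T23 and H2-Q2 the RefSeq start lies inside the gene coordinates given above, so part of the printed stretch does too. Positions counted from the RefSeq start are therefore not distances from the start in those coordinates. Capitals mark 3 motifs searched on both strands: AANNGAAA, the core that interferon regulatory factors (IRFs) bind, GTTTCACTT, the form of the interferon-stimulated response element in classical class I promoters, and GGGATTCCC, a kappaB site. GTTTCACTT holds AANNGAAA on its other strand, so each match of the longer motif is also one of the shorter. The letters were chosen with the windows in view.
H2-T3, chr17:36190152-36190401, minus strand: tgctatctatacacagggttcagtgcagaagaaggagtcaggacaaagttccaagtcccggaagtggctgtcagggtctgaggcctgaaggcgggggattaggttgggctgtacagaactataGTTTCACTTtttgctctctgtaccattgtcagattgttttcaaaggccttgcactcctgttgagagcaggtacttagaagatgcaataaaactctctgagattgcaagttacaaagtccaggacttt
H2-T22, chr17:36042743-36042992, minus strand: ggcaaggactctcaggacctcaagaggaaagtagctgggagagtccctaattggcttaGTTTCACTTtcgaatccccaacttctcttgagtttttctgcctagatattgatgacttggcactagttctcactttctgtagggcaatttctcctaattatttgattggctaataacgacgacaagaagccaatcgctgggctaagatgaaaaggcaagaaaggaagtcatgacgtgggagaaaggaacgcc
H2-T23, chr17:36032702-36032951, minus strand: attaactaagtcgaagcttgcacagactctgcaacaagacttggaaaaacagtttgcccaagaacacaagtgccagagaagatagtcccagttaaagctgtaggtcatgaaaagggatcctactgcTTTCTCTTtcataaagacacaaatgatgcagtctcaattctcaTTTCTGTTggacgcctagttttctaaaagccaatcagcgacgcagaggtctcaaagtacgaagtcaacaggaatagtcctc
H2-Q2, chr17:35342057-35342306, plus strand: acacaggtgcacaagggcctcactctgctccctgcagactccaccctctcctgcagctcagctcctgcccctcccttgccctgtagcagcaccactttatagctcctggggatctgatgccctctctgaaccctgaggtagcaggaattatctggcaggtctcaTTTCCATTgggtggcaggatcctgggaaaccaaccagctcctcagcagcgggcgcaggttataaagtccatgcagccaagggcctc
H2-Q4, chr17:35379367-35379616, plus strand: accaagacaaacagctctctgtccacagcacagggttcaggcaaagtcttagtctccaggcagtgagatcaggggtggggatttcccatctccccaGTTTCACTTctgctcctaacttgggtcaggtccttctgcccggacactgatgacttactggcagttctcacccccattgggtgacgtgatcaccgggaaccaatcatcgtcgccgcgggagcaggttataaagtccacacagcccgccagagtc
H2-Q7, chr17:35438905-35439154, plus strand: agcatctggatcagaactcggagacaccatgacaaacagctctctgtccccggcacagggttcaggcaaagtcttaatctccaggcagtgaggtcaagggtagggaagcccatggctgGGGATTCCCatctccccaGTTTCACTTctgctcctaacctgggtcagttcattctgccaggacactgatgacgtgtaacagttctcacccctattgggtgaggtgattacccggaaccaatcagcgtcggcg

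GTTTCACTT began at position -127 in H2-T3, -192 in H2-T22, -154 in H2-Q4 and -114 in H2-Q7, counted from the RefSeq start, and it was present in the windows of H2-K1 and H2-D1 too. Of 32851 RefSeq windows of 300 bases, 0.399% held it. H2-T23, H2-Q2 and Mr1 held AANNGAAA without the longer motif, H2-T23 at -124 and -81, H2-Q2 at -86 and Mr1 at -94; 23.9% of all windows held these letters. GGGATTCCC stood at -132 in H2-Q7 and in the H2-K1 and H2-D1 windows, against 0.353% of all windows, and in none of the other 6 windows of the genes described here. TATAAA, not capitalised, stood on the gene strand at -27 in H2-Q2 and -28 in H2-Q4, and on the other strand at -155 in H2-Q2 and -3 in H2-T3; 13.6% of all windows hold these letters on either strand. These matches describe letters in a window and are not evidence of binding in these crypts.

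Class I genes resemble each other, so some reads can fit several of them. The search for shared stretches read both strands, so antisense models over a gene's own locus count as well. Of the 50-base stretches of H2-T22 transcripts, 53.5% occurred in transcripts of another gene. H2-T10 held 31.2% and the antisense model A930015D03Rik 26.5%. H2-T10 shared 50.4% of its 50-base stretches, 31.7% with H2-T22 and 24.9% with the antisense model BC023719. The gene model Gm7030 spans H2-T10 on the same strand over 5590 bases. H2-Q4 shared 36.4%, of which the antisense model Gm11131 held 15.3% and H2-Q6 held 9.68%. H2-Q7 shared 26.5%, 14.0% with H2-Q10, while Cd1d1 shared 19.1%, all with Cd1d2. H2-Q2 shared 16.1%, H2-Q1 15% and H2-T23 14.5%. H2-T3 shared 0.926% and Mr1 none, so the counts of these 2 genes depend least on how the counting placed shared reads. The antisense model A930015D03Rik overlaps H2-T22 and H2-T23. The library kit was stranded, but whether the counting used strand is not given in the sources used here, so values of H2-T10, H2-T22, H2-T23 and H2-Q4, which antisense models overlap, carry that uncertainty.

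The libraries held 13334012 to 17973196 counts each. Libraries of the same group differed from each other. The mean length of the gene behind a count was 2412, 2007, 1445 and 2019 bases in DSS+CA 1 to 4 and 2234, 1423, 1448 and 1719 bases in DSS 1 to 4, so DSS+CA 3, DSS 2 and DSS 3 stood apart with the shortest counted genes. Mitochondrial genes took 9.72% to 20.47% of the counts in DSS+CA and 16.24% to 27.71% in DSS. CPM are counts scaled to the library total times its TMM factor, a correction for composition. The factors differed: 3 counts came to 0.156 CPM in DSS+CA 1 and 0.304 CPM in DSS+CA 3, at totals of 14719976 and 13334012. Overlap between groups was judged on these CPM, and some groups that do not overlap here do so on plain totals. Such overlap is named below for some genes only. The epithelial marker Epcam was abundant in all 8 libraries, at 1120 to 2240 CPM in DSS+CA and 1350 to 2980 CPM in DSS. Epcam did not pass the test (log2 fold change -0.44, SE 0.379, edgeR adjusted p = 0.925). The 14 epithelial markers together made up 21300 to 60800 CPM in DSS+CA and 19900 to 54500 CPM in DSS, while the 9 markers of stroma and vessels came to 5.0 to 7.7 CPM in DSS+CA and 8.07 to 15.5 CPM in DSS. In bulk libraries, fewer cells of a type and less RNA per cell cannot be told apart.

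Levels between the genes were compared per length, as CPM per kilobase of annotated exon. H2-Q2 stood highest, with 271 ± 23.7 CPM per kb in DSS+CA and 321 ± 27.1 CPM per kb in DSS (SD, n = 4 each). It made up 58.2% ± 3.17 of the summed level of the 10 genes in DSS+CA and 50.7% ± 4.25 in DSS. Next in DSS+CA came H2-T23, H2-Q1 and H2-T3, whose libraries overlapped in level, with means of 59.7, 53.6 and 51.7 CPM per kb. In DSS the same genes averaged 131 for H2-T23, 72.2 for H2-T3 and 50.1 CPM per kb for H2-Q1, with H2-T23 above both others in each of the 4 DSS libraries and H2-T3 overlapping H2-Q1. H2-T22 averaged 15 CPM per kb in DSS+CA and 24.9 in DSS, and H2-Q4 averaged 13.1 in DSS+CA and 29.5 in DSS. These 2 genes could not be ordered in either group. H2-Q7 followed with 2.62 ± 1.35 CPM per kb in DSS+CA and 7.58 ± 2.47 in DSS, below each of the genes named so far in each library. H2-T10 (0.595 and 1.13 CPM per kb in DSS+CA and DSS), Cd1d1 (0.184 and 0.357) and Mr1 (0.0194 and 0.103) stood lowest.

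**Figure D1:**
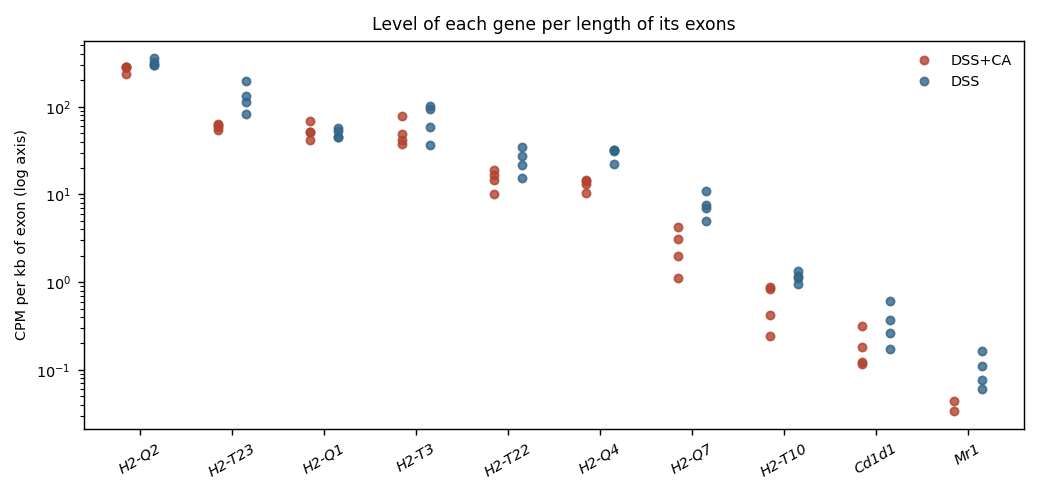
Level of each gene in each library, as CPM per kb of exon on a log axis, with DSS+CA points left of DSS points; the 2 DSS+CA libraries in which Mr1 had 0 counts are not drawn. H2-Q2 stands above the other 9 genes in all 8 libraries, and H2-T10, Cd1d1 and Mr1 lie lowest.

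In DSS+CA crypts, 4 of the 7 nonclassical genes tested had lower TMM-scaled CPM than in DSS crypts in every library. These were H2-T23, H2-Q2, H2-Q4 and H2-Q7. H2-Q7 was 2.91-fold, H2-Q4 2.26-fold and H2-T23 2.19-fold lower, whereas H2-Q2 was 1.19-fold lower. H2-Q1 and H2-T3, 2 of the better expressed genes, overlapped between the groups. By edgeR's quasi-likelihood test with Benjamini-Hochberg adjustment over 9913 genes, 0 of the 7 passed an adjusted p of 0.05, where 0.0908% of all genes passed in the lower direction and 0.0404% in the higher. At an unadjusted p under 0.05, 4 of the 7 were lower and 0 higher, against 4.85% and 2.97% of all genes tested. DESeq2 called 3 of the 7 lower (H2-T23, H2-Q4 and H2-Q7) and 0 higher, against 1.7% and 0.514% of all genes. Without DSS+CA 3, DSS 2 and DSS 3, the libraries of shortest counted genes, edgeR called 2 lower (H2-Q4 and H2-Q7) and 0 higher, against 4.25% and 2.36% of all genes.

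Groups of libraries that did not overlap, with DSS+CA lower, were found for 2.81% of all genes tested, beside the 4 of 7 genes here. The median log2 fold change of the 7 was -0.73, against 0.02 for all genes tested, and 6 of the 7 lay below 0, against 48.1% of all genes. These 7 are the members that passed a filter on low values (FPKM, fragments scaled to gene length and library size, of at least 1 in at least 4 libraries), not all 10. In simulated tables of this depth and spread, edgeR recovered 7.46% of 2-fold changes, 74.6% of 4-fold changes and 97% of 8-fold changes.

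**Figure D2:**
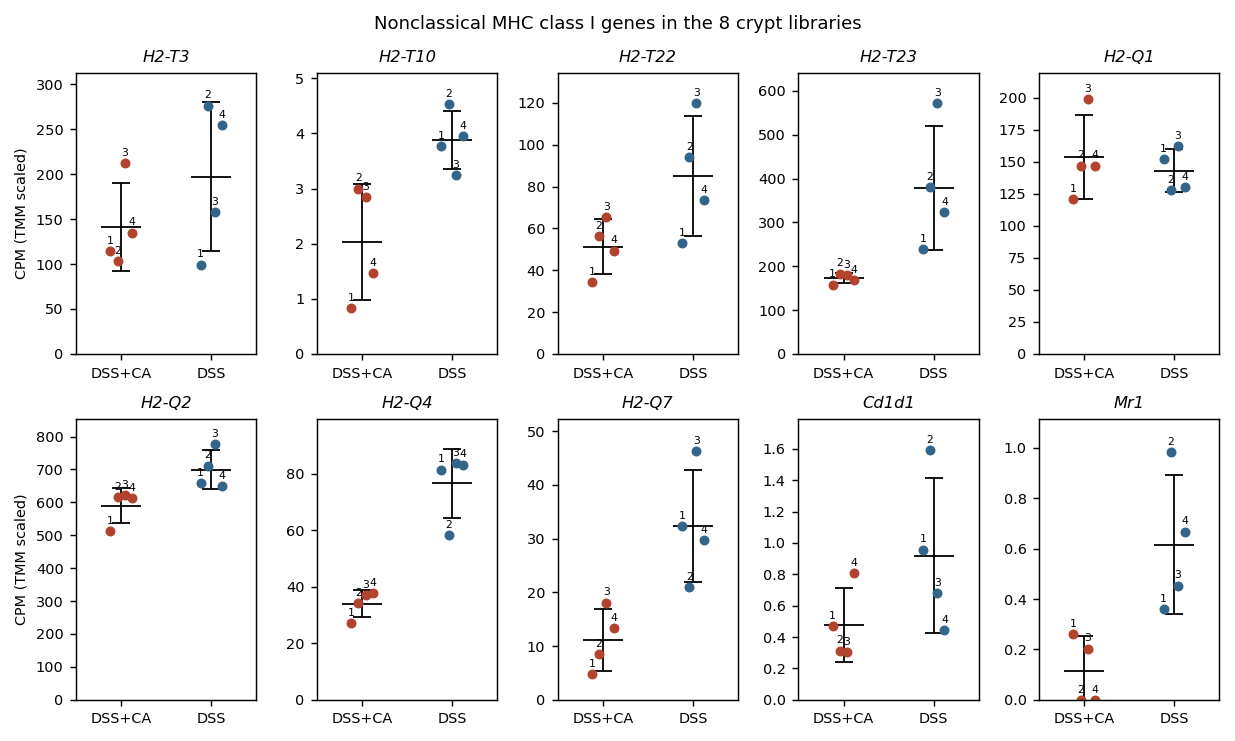
TMM-scaled CPM of each of the 10 genes in each library; points are libraries with their replicate number, lines are means and bars are SD (n = 4 each), and each panel has its own axis from 0. H2-T23, H2-Q2, H2-Q4, H2-Q7, H2-T10 and Mr1 have no DSS+CA library at or above a DSS library.

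H2-T23 encodes Qa-1, the mouse molecule that shows leader peptides of other class I proteins to the CD94/NKG2A receptor of natural killer (NK) cells and CD8 T cells. It had 158, 183, 180 and 169 CPM in DSS+CA 1 to 4, against 239, 380, 572 and 324 CPM in DSS 1 to 4. All 4 DSS+CA libraries lay within a narrow band below the lowest DSS library, and the DSS libraries spread widely, with DSS 3 highest. Means were 172 ± 11.1 CPM in DSS+CA and 378 ± 141 CPM in DSS, or -1.13 on the log2 scale (SE 0.32, edgeR adjusted p = 0.228). DESeq2 gave an adjusted p of 0.024. Without DSS+CA 3, DSS 2 and DSS 3 the log2 fold change was -0.75 with an edgeR adjusted p of 0.0558.

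H2-T3 encodes the thymus leukaemia antigen. It had 114, 103, 212 and 135 CPM in DSS+CA 1 to 4, against 99.4, 276, 158 and 254 CPM in DSS 1 to 4. The groups overlapped, since DSS 1 was the lowest of all 8 libraries, and DSS+CA 3 lay above 2 DSS libraries. Means of 141 ± 49.0 CPM in DSS+CA and 197 ± 82.5 CPM in DSS corresponded to -0.48 on the log2 scale (SE 0.38, edgeR adjusted p = 0.911), so no difference was detectable at this spread.

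H2-T22 encodes a molecule that carries no peptide and is bound by some mouse γδ T cell receptors. H2-T10 is its close relative, annotated as a polymorphic pseudogene. H2-T22 had 34.5, 56.3, 65.3 and 49.4 CPM in DSS+CA 1 to 4, against 52.9, 94.0, 120 and 73.7 CPM in DSS 1 to 4. DSS 1 lay among the DSS+CA libraries, and the other 3 DSS libraries lay above all of them. The log2 fold change was -0.73 (SE 0.327, unadjusted p = 0.0464, edgeR adjusted p = 0.626).

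H2-T10 stayed below the filter, with 16, 48, 28 and 27 counts in DSS+CA 1 to 4 and 63, 60, 43 and 71 counts in DSS 1 to 4. After TMM scaling, these were 0.834 to 3.0 CPM in DSS+CA and 3.25 to 4.53 CPM in DSS, with no overlap. On plain totals the groups overlap, with 48 counts of 13730975 in DSS+CA 2 and 43 counts of 15945309 in DSS 3. In the fit without a filter it came to -0.88 on the log2 scale (SE 0.472, edgeR adjusted p = 0.598). Gm7030, the gene model that spans H2-T10 on its strand, had 29 to 75 counts in DSS+CA and 48 to 163 counts in DSS, and the share of its reads that belong to H2-T10 was not tested.

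H2-T10 and H2-T22 were also summed, since the counting may have split shared reads between them; how it treated such reads is not known. The sum was 35.3, 59.3, 68.1 and 50.8 CPM in DSS+CA 1 to 4 and 56.7, 98.5, 123 and 77.7 CPM in DSS 1 to 4, with the same overlap as H2-T22 alone and a log2 fold change of -0.74 (edgeR adjusted p = 0.613). The 5 rows whose symbols begin with H2-T and a digit, summed, gave 308 to 460 CPM in DSS+CA and 396 to 855 CPM in DSS, with a log2 fold change of -0.86 (edgeR adjusted p = 0.479).

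H2-Q7 encodes Qa-2, a mouse class I molecule held in the membrane by a glycolipid anchor. It had 4.8, 8.51, 18.1 and 13.3 CPM in DSS+CA 1 to 4, against 32.3, 21, 46.3 and 29.7 CPM in DSS 1 to 4. All DSS+CA libraries lay below all DSS libraries, although DSS+CA 3 and DSS 2 were separated by little. Its log2 fold change, -1.54, lay furthest below 0 among the 7 genes (SE 0.419, edgeR adjusted p = 0.2). The adjusted p was 0.0203 by DESeq2, and 0.0344 by edgeR without DSS+CA 3, DSS 2 and DSS 3.

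H2-Q4 had 27.1, 34.2, 36.9 and 37.6 CPM in DSS+CA 1 to 4, against 81.4, 58.3, 83.6 and 83.2 CPM in DSS 1 to 4. After TMM scaling the groups were well apart, and DSS 2 was the lowest DSS library. On plain totals they overlap, with 697 counts of 15953432 in DSS+CA 4 and 772 counts of 17973196 in DSS 2. Means were 34.0 ± 4.79 CPM in DSS+CA and 76.6 ± 12.3 CPM in DSS, with a log2 fold change of -1.18 (SE 0.265). Its edgeR adjusted p of 0.11 was the smallest of the 7 genes, at an unadjusted p of 0.000922. DESeq2 gave 0.00214, and edgeR without DSS+CA 3, DSS 2 and DSS 3 gave an adjusted p of 0.014. Gm11131, the antisense model over H2-Q4, had 8 to 36 counts in DSS+CA and 30 to 82 counts in DSS.

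H2-Q2, the gene with the highest level per length, had 513, 616, 621 and 612 CPM in DSS+CA 1 to 4, against 658, 712, 777 and 649 CPM in DSS 1 to 4. After TMM scaling the groups did not overlap, but the gap between the highest DSS+CA and the lowest DSS library was small. On plain totals they overlap, with 9839 counts of 13730975 in DSS+CA 2 and 9429 counts of 17973196 in DSS 2. Means of 590 ± 51.7 CPM in DSS+CA and 699 ± 59.2 CPM in DSS corresponded to -0.25 on the log2 scale (SE 0.274, edgeR adjusted p = 0.965).

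H2-Q1 had 121, 147, 199 and 147 CPM in DSS+CA 1 to 4, against 152, 128, 162 and 130 CPM in DSS 1 to 4. The groups overlapped, and DSS+CA 3 lay above all DSS libraries. Means of 153 ± 32.7 CPM in DSS+CA and 143 ± 16.4 CPM in DSS corresponded to 0.10 on the log2 scale (SE 0.269, edgeR adjusted p = 0.999), which was -0.05 without DSS+CA 3. The 8 rows whose symbols begin with H2-Q summed to 675 to 890 CPM in DSS+CA and 924 to 1099 CPM in DSS, without overlap, at a log2 fold change of -0.29 (edgeR adjusted p = 0.946).

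Cd1d1 and Mr1 encode the class I-like molecules that present lipids to natural killer T cells and microbial riboflavin-pathway metabolites to mucosal-associated invariant T cells. Cd1d1 had 9, 5, 3 and 15 counts in DSS+CA 1 to 4 and 16, 21, 9 and 8 counts in DSS 1 to 4. Those totals, 32 counts in DSS+CA and 54 in DSS, overlapped between libraries, and the fit without a filter put the difference at -0.84 on the log2 scale (SE 0.684, edgeR adjusted p = 0.728).

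Mr1 had 5, 0, 2 and 0 counts in DSS+CA 1 to 4 and 6, 13, 6 and 12 counts in DSS 1 to 4, in all 7 counts in DSS+CA and 37 in DSS. The groups did not overlap in CPM (0 to 0.261 in DSS+CA and 0.359 to 0.982 in DSS). A count of 0 allowed up to 3 counts, or 0.188 CPM in DSS+CA 2 and 0.162 CPM in DSS+CA 4, for counting error only. The fit without a filter gave an edgeR adjusted p of 0.508, and at this depth the size of the difference could not be given.

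Neither of the classical class I genes passed the test. H2-K1 averaged 751 ± 77.4 CPM in DSS+CA and 1190 ± 351 CPM in DSS (log2 fold change -0.67, SE 0.317, edgeR adjusted p = 0.669), and its groups did not overlap. H2-D1 averaged 703 ± 102 CPM in DSS+CA and 1080 ± 401 CPM in DSS (log2 fold change -0.62, edgeR adjusted p = 0.747), and its groups overlapped, since DSS 2, at 703 CPM, lay below DSS+CA 2 and DSS+CA 4. B2m is the light chain that all of these molecules need. It had 771, 946, 962 and 1080 CPM in DSS+CA 1 to 4 and 1490, 1390, 1480 and 1260 CPM in DSS 1 to 4. Its groups did not overlap (log2 fold change -0.58, edgeR adjusted p = 0.70). On plain totals B2m and H2-K1 overlap. DSS+CA 4 had 20046 B2m and 15503 H2-K1 counts of 15953432, and DSS 2 had 18399 and 11942 counts of 17973196.

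To see whether a nonclassical gene differed by another factor than the classical ones, the counts were fitted again with the H2-K1 and H2-D1 counts of each library as the scale in place of the total. On this scale the median log2 fold change of all 9911 genes was 0.59, and 0 of the 7 genes passed, against 0.0404% of all genes lower and 0.394% higher. At an unadjusted p under 0.05, 1 of the 7 was lower and 0 higher, against 1.23% and 25.2% of all genes. H2-Q7 came to -0.90 on the log2 scale (SE 0.397, adjusted p = 0.182), H2-Q4 -0.59 (SE 0.289, adjusted p = 0.219) and H2-T23 -0.50 (SE 0.315, adjusted p = 0.315). H2-T22 gave -0.13 (SE 0.346), H2-T3 0.04 (SE 0.475), H2-Q2 0.32 (SE 0.32) and H2-Q1 0.69 (SE 0.32, adjusted p = 0.2). Without DSS+CA 3, DSS 2 and DSS 3, H2-Q4 and H2-Q7 passed on this scale (log2 fold changes of -0.85 and -1.38). The share of all genes that passed in that fit was not counted, and the shares above are from the fit of all 8 libraries.

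Expressed as a percentage of the H2-K1 and H2-D1 counts, H2-Q1 made up 9.39, 9.69, 14.8 and 8.78% in DSS+CA 1 to 4 and 7.78, 8.0, 4.85 and 5.91% in DSS 1 to 4. H2-Q1 was the single member of the 10 whose groups did not overlap in this percentage, with DSS+CA higher. The share of all genes without overlap on this scale was not counted. H2-Q1 came to 0.69 on the log2 scale here, near the median of 0.59 for all genes. At an edgeR unadjusted p under 0.05, 25.2% of all genes were higher. H2-T23 averaged 12% ± 1.36 in DSS+CA and 16.9% ± 4.91 in DSS (SD, n = 4 each), and DSS 1, at 12.2%, was level with the DSS+CA libraries. H2-Q2 counts ranged over 36.6 to 46.3% in DSS+CA and 23.3 to 44.4% in DSS.

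**Figure D3:**
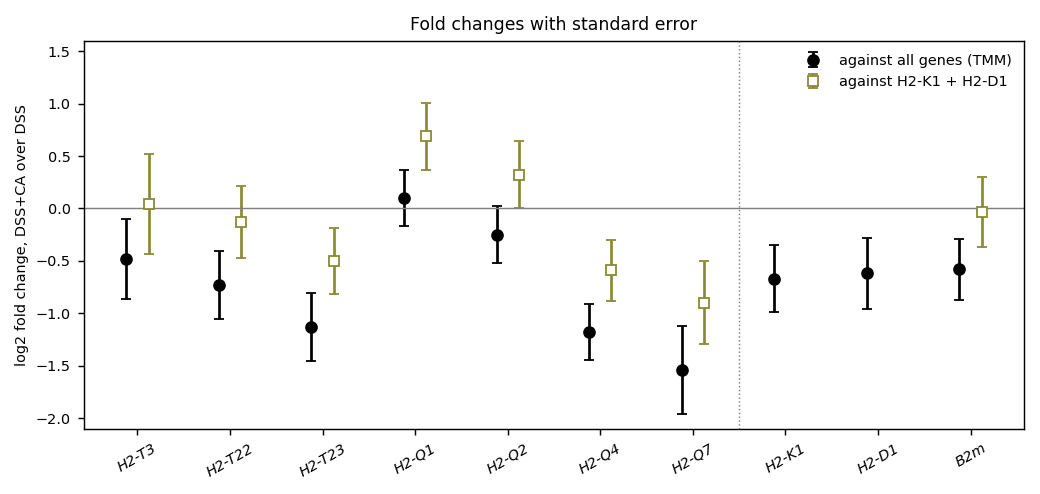
Log2 fold change, DSS+CA over DSS, with its standard error for the 7 tested nonclassical genes and, right of the dotted line, H2-K1, H2-D1 and B2m; circles are scaled to all genes and squares to H2-K1 plus H2-D1, a scale that moves the median of all genes to 0.59. On the first scale H2-Q7, H2-Q4 and H2-T23 lie lowest and H2-Q1 lies at 0.10. On the second, H2-Q1 (0.69), H2-Q2 (0.32) and H2-T3 (0.04) lie above 0.

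Of 16 matched genes for classical class I, its peptide supply and its loading, all 16 were tested and 0 passed in edgeR. At an unadjusted p under 0.05, 5 were lower and 0 higher, against 4.85% and 2.97% of all genes. Below 0 lay 14 of the 16, against 48.1% of all genes, and the median was -0.63, against 0.02. DESeq2 called 0, against 1.7% of all genes lower and 0.514% higher. Tap2, a subunit of the peptide transporter, averaged 28.1 ± 5.35 CPM in DSS+CA and 56.0 ± 15.4 CPM in DSS (log2 fold change -1.0, edgeR adjusted p = 0.279). Its partner Tap1 averaged 32.5 ± 6.4 CPM in DSS+CA and 52.5 ± 17.6 CPM in DSS, with overlap (log2 fold change -0.69, edgeR adjusted p = 0.651). The immunoproteasome subunit Psmb8 averaged 110 ± 63.7 CPM in DSS+CA and 271 ± 131 CPM in DSS (log2 fold change -1.31, edgeR adjusted p = 0.463), and Psmb9 had a log2 fold change of -0.82 (edgeR adjusted p = 0.476). Tapbpl, an editor of class I peptides, had a log2 fold change of -0.74 and an edgeR adjusted p of 0.365, with groups that did not overlap.

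Of 27 matched symbols of other nonclassical and class I-like genes, 13 had no count in any library and 5 were tested. None of the 5 passed in edgeR, 3 were lower at an unadjusted p under 0.05 (4.85% of all genes), and DESeq2 called 2 lower (1.7%). All 5 lay below 0 (48.1% of all genes). H2-Q5 averaged 1.57 ± 0.781 CPM in DSS+CA and 6.08 ± 0.683 CPM in DSS (log2 fold change -1.95, SE 0.425, edgeR adjusted p = 0.102). H2-Q6, which shares stretches with H2-Q4 and H2-Q7, averaged 6.48 ± 2.15 CPM in DSS+CA and 18.1 ± 6.05 CPM in DSS (log2 fold change -1.49, edgeR adjusted p = 0.162). H2-Bl had 24.2 to 37.1 CPM in DSS+CA and 51.6 to 55.3 CPM in DSS (log2 fold change -0.79, edgeR adjusted p = 0.317). H2-M3, whose mouse product presents formylated peptides, overlapped between groups (log2 fold change -0.46, edgeR adjusted p = 0.90).

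Of 22 tested regulators of class I transcription and interferon signalling, 0 passed in edgeR, and DESeq2 called 1 lower, against 1.7% of all genes. At an unadjusted p under 0.05, 5 were lower and 0 higher, against 4.85% and 2.97% of all genes. The median was -0.10, with 14 of the 22 below 0, against 48.1% of all genes. Irf7, a transcription factor of the interferon response, had 32.1, 31.9, 38.1 and 39.1 CPM in DSS+CA 1 to 4 and 72.4, 72.1, 102 and 69.4 CPM in DSS 1 to 4. It did not overlap between groups (log2 fold change -1.16, SE 0.261, edgeR adjusted p = 0.11, DESeq2 adjusted p = 0.00243). Irf1, which acts on class I promoters, averaged 43.2 ± 11.7 CPM in DSS+CA and 90.2 ± 21.9 CPM in DSS without overlap (log2 fold change -1.07, SE 0.306, edgeR adjusted p = 0.241). Stat2, a signal transducer of type I interferon receptors, had a log2 fold change of -0.84 (edgeR adjusted p = 0.476). Nlrc5, the class I transactivator, was below the filter with 2.55, 5.13, 5.18 and 5.98 CPM in DSS+CA 1 to 4 and 24.3, 8.01, 7.55 and 15.3 CPM in DSS 1 to 4. It gave -1.48 in the fit without a filter (SE 0.431, edgeR adjusted p = 0.154).

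CD1d receives its lipids from transfer proteins and from the lysosome. Of 10 genes of this lipid loading tested, 0 passed in edgeR, and the median was 0.16. At an unadjusted p under 0.05, 1 was higher, against 2.97% of all genes. That gene was Mttp, which transfers lipid onto CD1d and onto lipoproteins, with 3580, 3530, 3310 and 3710 CPM in DSS+CA 1 to 4 and 1980, 2170, 1730 and 1880 CPM in DSS 1 to 4. DSS+CA lay above DSS in every library (log2 fold change 0.86, SE 0.306, edgeR adjusted p = 0.414, DESeq2 adjusted p = 0.0461). Higher levels in DSS+CA without overlap were found for 3.26% of all genes. Ctss (log2 fold change -0.85) and Gm2a (-0.58) had edgeR adjusted p-values of 0.699 and 0.869.

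Nonclassical class I molecules are read by receptors of lymphocytes and, for some, of myeloid cells. Of 14 matched receptor and co-receptor genes, 8 were tested and 0 passed in edgeR. At an unadjusted p under 0.05, 7 were lower, against 4.85% of all genes, and DESeq2 called 5 lower, against 1.7%. All 8 lay below 0 with a median of -1.82, against 48.1% of all genes below 0. Cd8a, whose product as a homodimer binds the thymus leukaemia antigen, had 12.5, 14.0, 13.9 and 13.7 CPM in DSS+CA 1 to 4 and 53.3, 38.5, 32.0 and 36.9 CPM in DSS 1 to 4. Its log2 fold change of -1.57 (SE 0.27) had an edgeR adjusted p of 0.0502. Trdc, the constant part of the γδ T cell receptor delta chain, averaged 4.37 ± 1.87 CPM in DSS+CA and 15.6 ± 1.52 CPM in DSS (log2 fold change -1.85, edgeR adjusted p = 0.0683). Trac, its αβ counterpart, averaged 2.71 ± 1.09 CPM in DSS+CA and 9.28 ± 1.89 CPM in DSS (log2 fold change -1.80, edgeR adjusted p = 0.082), and Cd8b1 had a log2 fold change of -2.35 (edgeR adjusted p = 0.0654). Klrd1, which encodes the CD94 chain of the Qa-1 receptor, overlapped between groups, with 2.03, 4.0, 25.3 and 4.74 CPM in DSS+CA 1 to 4 and 6.71, 31.3, 29.1 and 20.4 CPM in DSS 1 to 4 (log2 fold change -1.30, SE 0.728, edgeR adjusted p = 0.763).

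**Figure D4:**
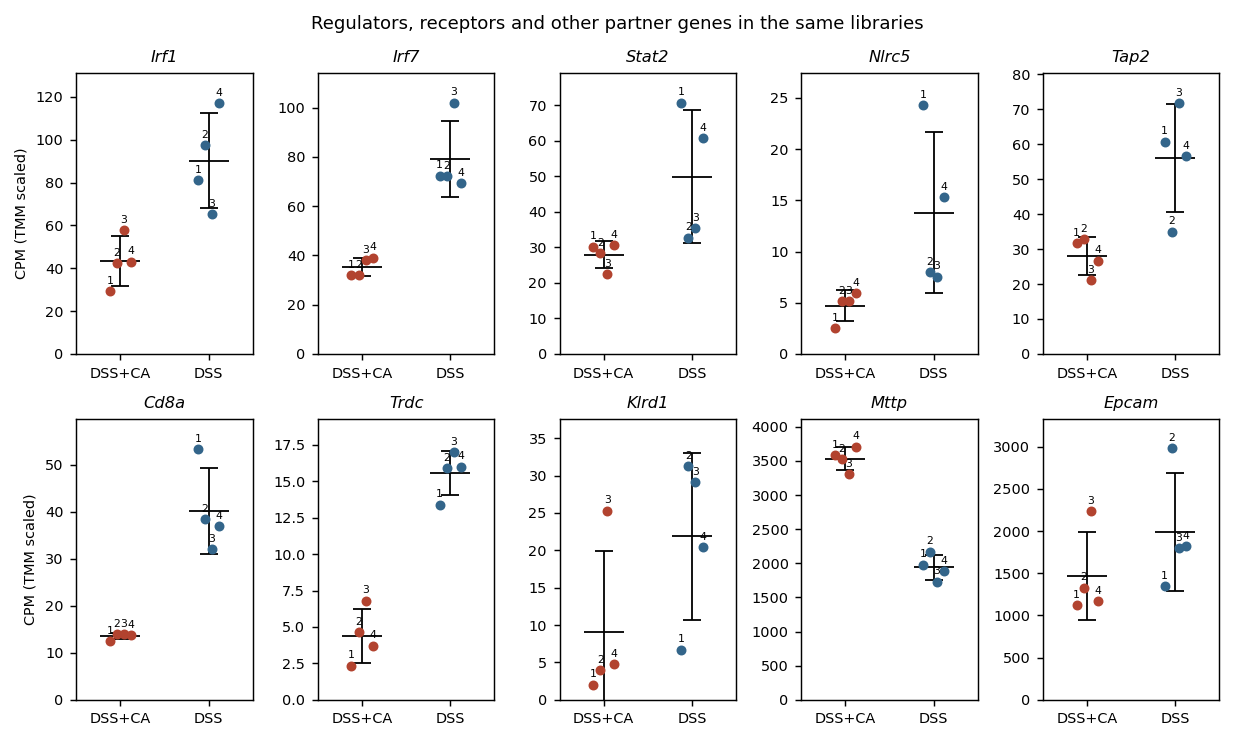
TMM-scaled CPM of 4 regulators and the transporter gene Tap2 (top row) and of receptor, lipid-loading and epithelial genes (bottom row) in each library; points carry the replicate number, lines are means and bars are SD (n = 4 each). Irf1, Irf7, Stat2, Nlrc5, Tap2, Cd8a and Trdc lie lower in all DSS+CA libraries than in any DSS library, Mttp lies higher, and Klrd1 and Epcam overlap.

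Markers of immune cells were counted in the same libraries. The 16 T and NK cell markers together came to 145 to 1160 CPM in DSS+CA and 707 to 2220 CPM in DSS, with overlap; Prf1 had 0 counts in DSS+CA 3, and the other 15 had counts in every library. Of 13 tested, 2 fell in edgeR, against 0.0908% of all genes. At an unadjusted p under 0.05, 12 were lower, against 4.85% of all genes, and DESeq2 called 12 lower, against 1.7%. Itgae, the integrin that anchors T cells to epithelium, fell in DSS+CA, with 9.12, 12.3, 8.12 and 13 CPM in DSS+CA 1 to 4 against 50.2, 31.7, 33.5 and 42.9 CPM in DSS 1 to 4 (log2 fold change -1.90, SE 0.297, edgeR adjusted p = 0.038). The chemokine gene Ccl5 fell to 29.3 ± 9.96 CPM in DSS+CA, against 115 ± 21.2 CPM in DSS (log2 fold change -1.97, SE 0.32, edgeR adjusted p = 0.0477). Neither call held when any of DSS+CA 1, DSS+CA 2, DSS+CA 4, DSS 1, DSS 2 or DSS 4 was left out, with Itgae up to an adjusted p of 0.183 and Ccl5 up to 0.206, and that of Ccl5 was also lost without DSS 3.

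B and plasma cell markers, 9 genes, came to 13.6 to 27.9 CPM in DSS+CA and 53.2 to 81.5 CPM in DSS. Among them, Cd79a, Cd79b, Ms4a1 and Mzb1 had 0 counts in at least 1 library. Of 4 tested, 0 passed in edgeR, 3 were lower at an unadjusted p under 0.05 (4.85% of all genes), and DESeq2 called 2 lower (1.7%). Igkc, the kappa light chain, averaged 6.88 ± 2.19 CPM in DSS+CA and 25.6 ± 9.89 CPM in DSS (log2 fold change -1.90, edgeR adjusted p = 0.0806), Ighm had a log2 fold change of -1.76, Igha of -1.13 and Jchain of -1.15. The 14 genes listed as myeloid came to 22.8 to 54.7 CPM in DSS+CA and 60.2 to 171 CPM in DSS. Among them is Ptprc, a gene of all leukocytes, with 132 CPM in DSS 2 and 58.5 CPM in DSS 4. Csf1r, Adgre1, C1qa, C1qb, C1qc, S100a8 and S100a9 had 0 counts in at least 2 libraries each. Of 3 tested, 0 passed in edgeR, 3 were lower at an unadjusted p under 0.05 (4.85% of all genes), and DESeq2 called 1 lower (1.7%). Fcer1g, Lyz2 and Tyrobp had log2 fold changes of -1.45, -1.60 and -1.49. NK cells also express Fcer1g and Tyrobp, so this list does not separate myeloid cells from lymphocytes.

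Of 13 tested epithelial markers, 0 passed in edgeR or DESeq2, 0 had an unadjusted p under 0.05, and the median was -0.01. The 4 with the smallest p were Lyz1, a Paneth cell product (log2 fold change -1.10, edgeR adjusted p = 0.756), Muc2, the goblet cell mucin (-1.06, edgeR adjusted p = 0.651), Olfm4, a crypt base gene (-0.88, edgeR adjusted p = 0.764), and Krt19 (0.61, edgeR adjusted p = 0.745). Lymphocytes are also known to express H2-K1, H2-D1, B2m, H2-T23 and H2-Q7. The part of these markers in the differences of H2-T23, H2-Q4, H2-Q7, H2-K1 and B2m was not tested.

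Likeness across libraries was measured as Pearson's r, over the 8 libraries, to the mean z-score of log2 CPM of the 7 tested genes. H2-T22 (0.947), H2-Q2 (0.946), H2-Q7 (0.937), H2-T23 (0.883) and H2-Q4 (0.833) followed that mean, which they help to make, more closely than H2-T3 (0.589) and H2-Q1 (0.348). The 5 tested genes outside the members with the highest r were Coro1a (0.993), Gimap1 (0.983), Cd7 (0.976), Tppp3 (0.975) and 9430038I01Rik (0.971). Coro1a, an actin-binding protein of leukocytes, averaged 10.7 ± 7.1 CPM in DSS+CA and 48.4 ± 34.6 CPM in DSS (log2 fold change -2.19, edgeR adjusted p = 0.182). Gimap1, a GTPase gene of lymphocytes, averaged 4.98 ± 1.71 CPM in DSS+CA and 9.99 ± 2.06 CPM in DSS (log2 fold change -1.01, edgeR adjusted p = 0.35). Cd7, a T and NK cell surface gene, averaged 29.1 ± 11.5 CPM in DSS+CA and 88.4 ± 30.3 CPM in DSS (log2 fold change -1.61, edgeR adjusted p = 0.119). Tppp3 averaged 7.74 ± 5.79 CPM in DSS+CA and 17.1 ± 6.48 CPM in DSS (log2 fold change -1.15, edgeR adjusted p = 0.597). For 9430038I01Rik the means were 13.2 ± 4.07 CPM in DSS+CA and 20.5 ± 5.19 CPM in DSS (log2 fold change -0.63, edgeR adjusted p = 0.7). The 8 points are 2 groups of libraries that share depth and composition, so these values of r are descriptions.

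**Figure D5:**
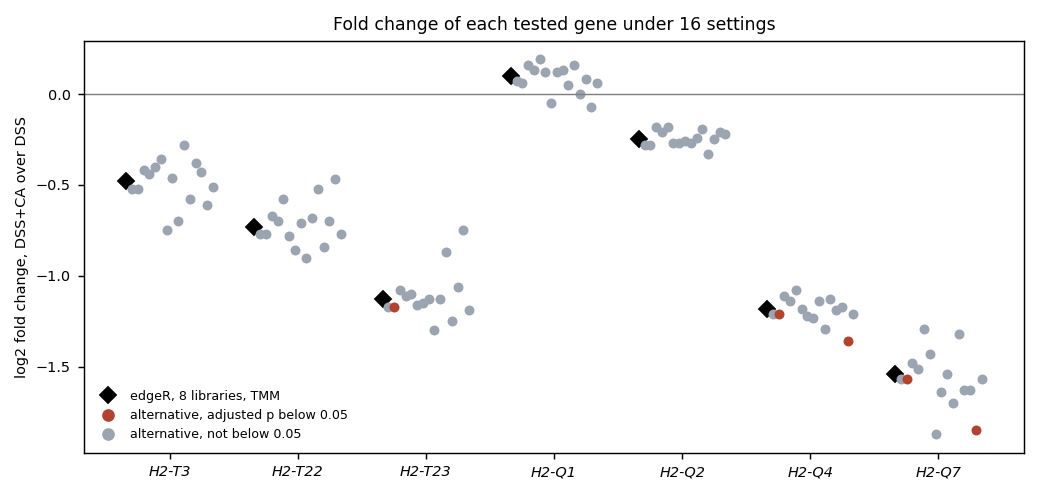
Log2 fold change, DSS+CA over DSS, of the 7 tested genes under the chosen fit (diamond) and under 15 other settings (circles, in colour where the adjusted p was under 0.05). H2-Q7, H2-Q4, H2-T23, H2-T22, H2-T3 and H2-Q2 stay below 0 under each setting and H2-Q1 lies on both sides of it; H2-Q4 and H2-Q7 passed under 2 settings and H2-T23 under 1.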

How the data were processed

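RNA sequencing of 8 crypt libraries was used, each made from 200 ng of total RNA with a stranded total RNA kit, per the labels' protocols. Each library has a deposited table with a read count and an FPKM value per gene, 34745 rows, as the file headers name them. The authors used HISAT2 and StringTie with GRCm38/mm10, per the submitters' processing notes. The sources used here give neither their versions nor the annotation or strand setting of the counting. FPKM values, as deposited, were used only to filter low genes (at least 1 in at least 4 libraries), which left 9913 genes. Counts were tested with edgeR 4.0.16 (R 4.3.3, limma 3.58.1): TMM scaling, quasi-likelihood F test, two-sided, Benjamini-Hochberg adjustment, threshold 0.05. CPM are counts scaled to each total after TMM. The length that the deposited FPKM imply for a gene exceeded its annotated exons (8561 against 2728 bases for H2-T3), so levels per kb were computed from counts and the GENCODE M21 exon union; 34344 of the IDs matched GENCODE M21. The fit was tested on simulated data. DESeq2 1.42.0, other scalings and filters, left-out libraries, a replicate block and a gene length offset were alternatives. In pairs of libraries of a group, a chi-square per degree of freedom of 24.8 or more showed no library deposited again. Beyond the 10 genes, the text names the genes that passed in each list or else up to 4 with the smallest p, 11 partner genes and the 5 genes most alike; 2 genes under this rule are not reported here. Genes and lists were chosen with earlier results of these data known. H2-L, H2-Q8, H2-Q9, Trgc1 and Trgc2 were not matched by symbol.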

Additional observations from a re-analysis of the deposited data

Results flagged for a closer look

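In 20 groups of 4 libraries (10 genes, 2 groups each), a value far from the other 3 was found in 2, and chance gives such a value in about 1 in 20 groups. H2-Q2 in DSS+CA 1 was 513 CPM, with the other DSS+CA libraries at 612 to 621 CPM; the gap was 0.922 of the range of the group, past Dixon's critical value. H2-Q4 in DSS 2 was 58.3 CPM, with the other DSS libraries at 81.4 to 83.6 CPM and a gap of 0.912 of the range. DSS+CA 1 had the longest counted genes of the 8 libraries (mean 2412 bases) and DSS 2 the shortest (1423 bases); the part of this in both values was not tested.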

How the results depend on the processing

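The number of all genes called was 13 (4 higher, 9 lower in DSS+CA). It was 27 with RLE size factors, 220 with DESeq2, 79 without a filter, 60 with a gene length offset, 655 without DSS+CA 3, DSS 2 and DSS 3, and 4 to 84 when single libraries were left out, the extremes being without DSS+CA 2 or DSS+CA 4 and without DSS+CA 3. The nonclassical genes called were 0, but 3 with DESeq2 and 2 without those 3 libraries. Relative to H2-K1 and H2-D1 they were 0, and 2 without those 3 libraries, a fit in which the calls among all genes were not counted. The cause was not tested. With the replicate number as a block 65 genes were called and 0 of the nonclassical genes. Same-numbered libraries correlated at 0.752, -0.344, 0.105 and 0.197, and only number 1 matched its own number best, so the numbers were not taken as pairs. The H2-Q1 log2 fold change of 0.10 was -0.05 without DSS+CA 3 and -0.07 without the 3 libraries, and -0.05 to 0.19 with single libraries left out. Relative to H2-K1 and H2-D1, H2-T3 (0.04) was -0.28 without DSS+CA 3, -0.17 without DSS 1, -0.19 without DSS 3 and -0.07 without the 3 libraries, and H2-T22 (-0.13) was 0.14 without DSS 2 and 0.04 without the 3 libraries; with single libraries left out they spanned -0.28 to 0.47 and -0.31 to 0.14. Over 15 alternatives the log2 fold changes spanned -1.87 to -1.29 for H2-Q7, -1.36 to -1.08 for H2-Q4, -1.30 to -0.75 for H2-T23, -0.90 to -0.47 for H2-T22, -0.75 to -0.28 for H2-T3 and -0.33 to -0.18 for H2-Q2. The summed paralogs gave 0 calls under each alternative run. Of the single-gene values under the alternatives, 822 kept direction and side of the threshold, 61 came to pass it, 14 ceased to pass it (Itgae and Ccl5) and 8 changed sign. The same alternatives for partner genes and for H2-T10, Cd1d1 and Mr1 were added after seeing the data. Depth limits H2-T10, Cd1d1 and Mr1 most.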
